A study of Homo sapiens with 6 samples.

Results

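The vault RNAs VTRNA1-1, VTRNA1-2 and VTRNA1-3 and their relative nc886, also called VTRNA2-1, were followed in small RNA libraries of HEK293T, a human embryonic kidney cell line. The table of raw read counts holds 53603 windows of 400 bp, each running from 150 bp before to 250 bp after a start site. The members were taken by class label, as the 3 windows labelled vault_RNA and the 1 window labelled nc886, so they are 4 windows of 53603, and all of them are given in all 6 libraries. The study asked how La, an RNA-binding protein whose gene is SSB, affects small RNA read at promoters. Cells received 150 nM of a control siRNA (siControl, 3 libraries) or of an siRNA against La (siLa, 3 libraries) and were collected after 48 h. Both arms were the same cell line, transfected with the same lipid reagent, and the 3 libraries of an arm are described as biological replicates. The RNA was treated with a phosphatase and then with polynucleotide kinase before library preparation, so that RNA with a 5′ triphosphate or a 3′ phosphate could also enter the library.

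Vault RNAs are short noncoding RNAs made by RNA polymerase III from promoters that lie inside the gene, where a box A and a box B element bind the transcription factor TFIIIC, as in tRNA genes. They were first found as the RNA of the vault, a large ribonucleoprotein particle built mainly of the major vault protein MVP with PARP4 and TEP1. RNA polymerase III stops in a run of T, which leaves a 3′ tail of U on the new RNA, and La binds such tails and shields them from exonucleases. VTRNA1-1 is known to bind the autophagy receptor SQSTM1, and nc886 is known as a ligand and inhibitor of the kinase PKR, the product of EIF2AK2.

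The 4 RNAs are shown as GENCODE release 29 gives them (GRCh38, chromosome 5), because they share the internal promoter elements and differ in the middle and at the 3′ end. Capitals mark the box A core TAGCTCA, the box B core GTTCGA and any run TTTT.
VTRNA1-1: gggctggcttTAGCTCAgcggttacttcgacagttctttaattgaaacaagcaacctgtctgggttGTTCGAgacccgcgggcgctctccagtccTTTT
VTRNA1-2: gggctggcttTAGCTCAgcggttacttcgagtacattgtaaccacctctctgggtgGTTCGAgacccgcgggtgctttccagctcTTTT
VTRNA1-3: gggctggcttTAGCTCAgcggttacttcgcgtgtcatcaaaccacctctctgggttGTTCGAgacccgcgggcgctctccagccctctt
nc886: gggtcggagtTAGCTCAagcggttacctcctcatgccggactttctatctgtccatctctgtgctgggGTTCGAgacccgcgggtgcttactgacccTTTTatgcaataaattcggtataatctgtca

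VTRNA1-1 lies at chr5:140711275-140711373 on the plus strand (99 nt) and its window at chr5:140711126-140711525. VTRNA1-2 lies at chr5:140718925-140719013 on the plus strand (89 nt) in the window chr5:140718775-140719174. VTRNA1-3 lies at chr5:140726158-140726246 on the plus strand (89 nt) in the window chr5:140726009-140726408. The 3 genes are therefore in a row, 7650 and 7233 bp apart from start to start, each annotated as a misc_RNA gene of its own. nc886 lies 4630678 bp before VTRNA1-1, on the minus strand at chr5:136080470-136080597 (128 nt, a vaultRNA gene), in the window chr5:136080348-136080747. In each case the annotated start was within 1 bp of the start site of the window, so a window holds the promoter, the whole RNA and the sequence after it, and the counts do not tell these apart.

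All 4 RNAs hold the box A core once, at positions 11 to 17 counted from the first base, and the box B core once. The cores are 39 bases apart in VTRNA1-2 and VTRNA1-3, 49 in VTRNA1-1 and 51 in nc886. Neither core occurs on the opposite strand of any of them. Among 4086 other GENCODE transcripts of 89 to 128 nt, searched on their own strand, 0.465% held the box A core, 0.661% the box B core and 0 held the first followed by the second. That set holds no tRNA genes, which carry such boxes too.

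The annotated 3′ ends differed. VTRNA1-1 and VTRNA1-2 end in 4 T. VTRNA1-3 ends in 2 T and holds no TTTT in its annotated length. In nc886 the TTTT lies at positions 98 to 101, and a second GENCODE transcript from the same start ends there, at 101 nt. A TTTT occurred in 42.1% of the other transcripts of 89 to 128 nt. These are letters of an annotation, and the 3′ ends of the RNAs in these libraries are not in the count table.

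The 3 VTRNA1 RNAs are similar enough to share reads. VTRNA1-2 and VTRNA1-3 were identical in 87.8% of aligned positions, VTRNA1-1 and VTRNA1-3 in 82.8%, and VTRNA1-1 and VTRNA1-2 in 81.8%. The first 30 bases of VTRNA1-1 and VTRNA1-2 are the same, as are the first 29 of VTRNA1-2 and VTRNA1-3. VTRNA1-1 and VTRNA1-3 share a run of 34 bases near the 3′ end. Of the 20-base words in each RNA, 32.5% in VTRNA1-1, 20% in VTRNA1-2 and 35.7% in VTRNA1-3 occur in another member, against 2.75% in nc886. The annotated pseudogene VTRNA3-1P also shares words with the VTRNA1 RNAs. How reads with several positions were placed is not given in the sources used here, so a value for 1 of the VTRNA1 windows is uncertain to that extent, and most of all for VTRNA1-3, the least read of them.

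The 6 libraries held from 3066299 to 4105806 counts over all windows, with 7531 to 9588 windows read at least once. Of 53603 windows, 1064 had enough reads to be tested, and of these 4.79% were lower and 0.658% higher in siLa at an edgeR adjusted p under 0.05 (51 and 7 windows). That split moved to 36 lower and 58 higher with upper quartile scaling and to 76 lower and 23 higher with DESeq2. It also moved with the libraries in the fit, to 30 and 4 without siControl replicate 1, 29 and 2 without siControl replicate 2, 53 and 3 without siControl replicate 3, 0 and 0 without siLa replicate 1, 32 and 4 without siLa replicate 2, and 98 and 21 without siLa replicate 3. The targeted gene gave little check of the knockdown. The better read of its windows (PCG_40419) had 4, 3 and 3 counts in siControl and 1, 0 and 0 in siLa. The other (PCG_12982) had 0, 0 and 1 in siControl and 0, 2 and 0 in siLa. Both count small RNA at the SSB promoter, not SSB mRNA. CPM values below are counts per 1000000 with library totals scaled by edgeR's TMM factors, and SE is that of a log2 fold change.

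VTRNA1-2 and VTRNA1-1 were lower after siLa, by 4.61-fold and 3.64-fold. VTRNA1-3 had a fitted fall of 2.16-fold that did not pass the threshold, and nc886 was too thinly read for the test. In each of the 4 windows every siLa library lay below every siControl library in CPM. Among all 1064 tested windows, 17.9% were separated in this direction, and among the 21830 windows with any read, 1.72% were. These are pooled cultures, so fewer cells making an RNA and less of it per cell cannot be told apart.

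**Figure D1:**
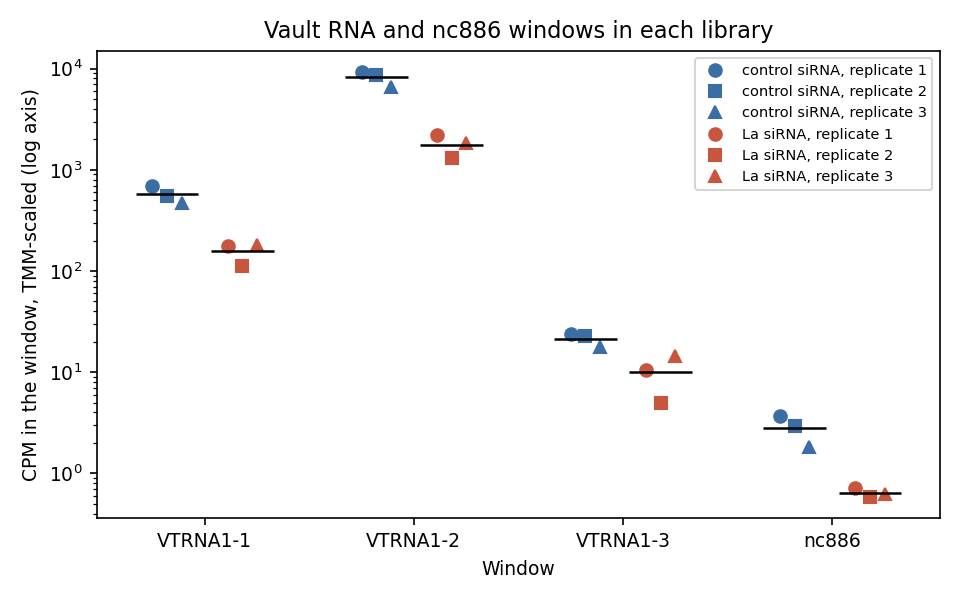
TMM-scaled CPM of the 4 windows in each of the 6 libraries, on a log axis, with control siRNA in blue, La siRNA in red, one marker shape per replicate number and a black line at the mean of each arm (n = 3). In each window the 3 red points lie below the 3 blue points, and the levels fall from VTRNA1-2 through VTRNA1-1 and VTRNA1-3 to nc886.

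VTRNA1-2 was the most read of the family. It had 35524, 29375 and 25538 counts in siControl replicates 1 to 3 and 6149, 4418 and 5802 in siLa replicates 1 to 3. The lowest library was siLa replicate 2, and the arms were far apart, since the highest siLa library had 33.3% of the CPM of the lowest siControl library. The mean went from 8192 ± 1394 to 1778 ± 454 CPM (SD, n = 3 each). The log2 fold change was -2.20 (SE 0.26, 95% interval -2.78 to -1.63, edgeR adjusted p = 0.00565). By unadjusted p-value this window was in place 1 of the 1064 tested. Its fold change was in place 10 from the largest fall, and its level was in place 64 from the highest. Places 7 to 9 and 11 to 13 by fold change were called windows of snAR, an RNA that binds the protein NF90 (log2 fold changes from -2.23 to -2.18).

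VTRNA1-1, the vault RNA known to bind SQSTM1, had 2661, 1874 and 1797 counts in siControl and 494, 377 and 580 in siLa. Here too siLa replicate 2 was the lowest library, and the highest siLa library had 39.2% of the CPM of the lowest siControl library. The mean went from 571 ± 115 to 157 ± 39.8 CPM (SD, n = 3 each). The log2 fold change was -1.86 (SE 0.28, 95% interval -2.50 to -1.23, edgeR adjusted p = 0.0103). It was in place 5 of the tested windows by unadjusted p-value and in place 25 by size of the fall. Places 22 to 24 and 26 to 28 by size of the fall were tRNA and snAR windows (log2 fold changes from -2.05 to -1.82), some called and some not.

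Both calls rested on siLa replicate 1 being in the fit. Without it the log2 fold changes were -2.41 for VTRNA1-2 and -1.98 for VTRNA1-1, larger than with all libraries, but the edgeR adjusted p was 0.0623 and 0.121. That fit called 0 of 1121 windows by edgeR adjusted p. An unadjusted p under 0.05 was reached by 103 windows with a fall and 72 with a rise.

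VTRNA1-3 had 91, 77 and 69 counts in siControl and 29, 17 and 46 in siLa. The arms came close, since siLa replicate 3 reached 81.0% of the CPM of siControl replicate 3. The mean went from 21.5 ± 3.14 to 9.97 ± 4.76 CPM (SD, n = 3 each), and the spread within siLa was 47.7% of its mean, against 25.5% for VTRNA1-2. The log2 fold change was -1.11 (SE 0.39, 95% interval -1.97 to -0.24, edgeR adjusted p = 0.135, unadjusted p = 0.0168). Without siLa replicate 3 the log2 fold change was -1.56 and the edgeR adjusted p 0.0434.

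nc886 was barely read. It had 14, 10 and 7 counts in siControl and 2, 2 and 2 in siLa, which is 2.81 ± 0.929 and 0.645 ± 0.0653 CPM (SD, n = 3 each). The siLa counts are so low that counting error alone is large. Summed over the arms, 6 of 9635316 counts in siLa stand against 31 of 10852496 in siControl, a ratio of 0.218 with an exact 95% interval from 0.0744 to 0.530 that covers counting error only. The filter on low counts removed this window. Fitted without the filter, its log2 fold change was -2.32 (SE 0.72, edgeR adjusted p = 0.187, unadjusted p = 0.00125), in a fit where 0.476% of 21830 windows were called lower and 2.01% had a fall at an unadjusted p under 0.05. An exact permutation test of its CPM gave p = 0.1, the smallest that 3 against 3 libraries allow.

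In the authors' deposited table the 4 windows had log2 fold changes of -2.10 for VTRNA1-1, -2.45 for VTRNA1-2, -1.33 for VTRNA1-3 and -2.32 for nc886. The adjusted p-values in the authors' deposited table were 9.79e-08, 1.24e-11, 0.304 and 0.825 in the same order. That table called the same pair of members lower, with 0.149% of its 53603 windows called lower.

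**Figure D2:**
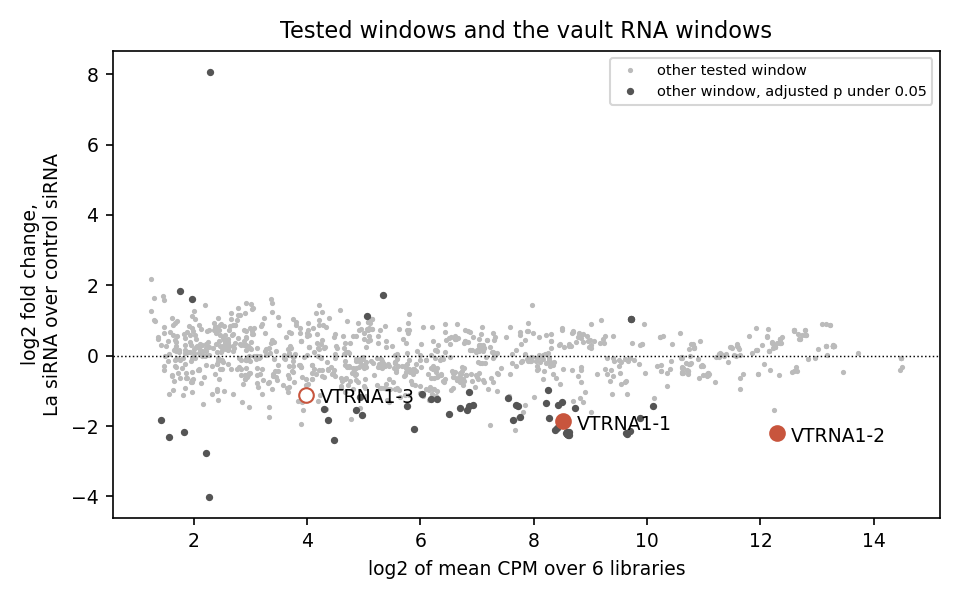
Each of the 1064 tested windows by the log2 of its mean CPM over 6 libraries (x axis) and its log2 fold change of La siRNA over control siRNA (y axis). VTRNA1-2 and VTRNA1-1 (filled red) lie at -2.20 and -1.86, and VTRNA1-3 (open red, adjusted p of 0.135) lies at -1.11 among the weakly read windows.

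The order of levels was the same in the arms. Per 100 nt of annotated RNA, siControl held 9205 CPM of VTRNA1-2, 577 of VTRNA1-1, 24.1 of VTRNA1-3 and 2.19 of nc886. In siLa the same quantities were 1998, 159, 11.2 and 0.504 CPM. No siControl or siLa value of one member reached into the range of its neighbour in this order within an arm. VTRNA1-2 made up from 92.8% to 93.8% of the counts of the 3 VTRNA1 windows in siControl and from 90.3% to 92.2% in siLa. The 3 windows together took 0.932%, 0.960% and 0.786% of the counts of siControl replicates 1 to 3 and 0.218%, 0.141% and 0.204% of those of siLa replicates 1 to 3.

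Ratios between members within a library, which need no scaling between libraries, were compared next, to ask whether the members moved by different amounts. VTRNA1-2 exceeded VTRNA1-1 by 13.3-, 15.7- and 14.2-fold in siControl and by 12.4-, 11.7- and 10.0-fold in siLa. The log2 ratio of VTRNA1-1 to VTRNA1-2 was thus higher in siLa by 0.34. VTRNA1-2 exceeded VTRNA1-3 by 388-, 379- and 367-fold in siControl and by 208-, 252- and 125-fold in siLa, a log2 ratio of VTRNA1-3 to VTRNA1-2 higher in siLa by 1.01. The log2 ratio of VTRNA1-1 to VTRNA1-3 differed by -0.67, siLa minus siControl. Of the 3, VTRNA1-2 thus lost most and VTRNA1-3 least in these libraries, and the arms did not overlap in any of the 3 ratios. Such separation was common, since VTRNA1-2 was separated in this direction from 92.8% of the 1063 other tested windows and VTRNA1-1 from 90.2%, so it says nothing particular of these pairs. Each exact permutation test, two-sided, gave p = 0.1 (0.1 after Benjamini-Hochberg adjustment over the 3 ratios), the smallest possible with 3 against 3, so no difference between members passed a threshold of 0.05. Without siLa replicate 3, the siLa library in which VTRNA1-3 was highest, the difference for VTRNA1-3 to VTRNA1-2 was 0.72.

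**Figure D3:**
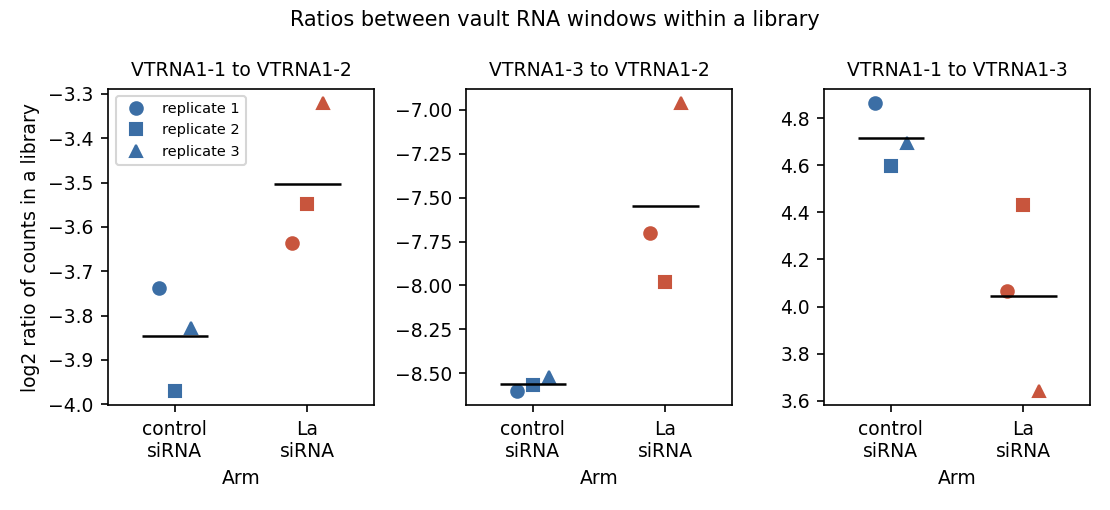
Log2 ratio of the counts of a pair of vault RNA windows within each library (y axis, a separate scale in each panel) by arm (x axis), with one marker shape per replicate number and a black line at the mean (n = 3). The arms do not overlap in any panel. The same was so for 92.8% of other tested windows against VTRNA1-2 and for 90.2% against VTRNA1-1. VTRNA1-3 to VTRNA1-2 moved most, from a mean of -8.56 to -7.55.

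Other RNAs made by RNA polymerase III were read beside the vault RNAs. Of 10 tested windows on a list of such genes, tRNA and 5S rRNA genes left out, 1 was lower and 0 were higher by edgeR, with 0 higher also at an unadjusted p under 0.05 and by DESeq2. Over all 1064 tested windows, 4.79% were called lower and 0.658% higher by edgeR. With 10 windows, counts of 1 and 0 cannot be told from those shares. The median log2 fold change of the 10 was -0.09, against -0.05 over all tested windows. The one called was SNAR-A1, one of many near-identical copies of an RNA that binds the protein NF90, whose log2 fold change was -2.21 (SE 0.44, adjusted p = 0.0168 with edgeR). SNAR-A1 went from 1315 ± 561 to 284 ± 139 CPM (SD, n = 3 each), and its call too was lost without siLa replicate 1. The list does not cover all such genes that were called lower. Most of the 51 windows called lower by edgeR were tRNA or snAR windows. Most other tested snAR copies were called, such as SNAR-A4 (-2.23, edgeR adjusted p = 0.0148). Of the tRNA windows left out, many were called, such as TRV-CAC11-2 (-2.05, edgeR adjusted p = 0.0390), though most of those tested were not. A fall was thus not particular to the vault RNAs and SNAR-A1.

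The Y RNAs, which bind the protein RO60, and the U6 spliceosomal RNAs were not called. RNY1 had 9137 ± 1295 CPM in siControl and 9310 ± 386 in siLa (SD, n = 3 each), a level in a window of the same length that was close to that of VTRNA1-2 in siControl. Its log2 fold change was 0.03 (SE 0.20, edgeR adjusted p = 0.927). RNY3 had the most negative value of the uncalled windows, -0.49 (SE 0.30, edgeR adjusted p = 0.302). BCYRN1 and RNU6ATAC, at most 8 and 5 counts per library, were not tested.

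Another 5, longer genes of the list run past the end of a window and were added after the files had been seen. They were added through the 6 windows whose start site lay within 10 bp of either end of the gene. RMRP had a window at each end. Their counts were the same except for 3318 and 3317 in siLa replicate 3, so the same reads stand in both. Of the 6, 0 were called by edgeR or DESeq2, and 0 had an unadjusted edgeR p under 0.05. Since edgeR called 4.79% of all tested windows lower and 0.658% higher, 0 of 6 does not set these windows apart. RMRP, the RNA of RNase MRP, had the highest value, 0.52 (SE 0.26, edgeR adjusted p = 0.234). RPPH1, the RNA of RNase P, had 0.44 (SE 0.23, edgeR adjusted p = 0.247). RN7SK, the RNA that restrains the elongation factor P-TEFb, had 0.15, and the signal recognition particle RNAs RN7SL1 and RN7SL2 had 0.02 and 0.05.

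The ratio of VTRNA1-2 to each of the 16 tested windows of these genes, both RMRP windows included, was taken within a library. It was separated between the arms for 15 of the 16, with VTRNA1-2 lower against them in siLa (differences from -2.71 to -1.77, siLa minus siControl, on the log2 scale). The exception was SNAR-A1, against which VTRNA1-2 differed by 0.07 with overlapping arms. Of all other tested windows, 92.8% were separated from VTRNA1-2 in that way, so the count for these genes is close to the background.

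**Figure D4:**
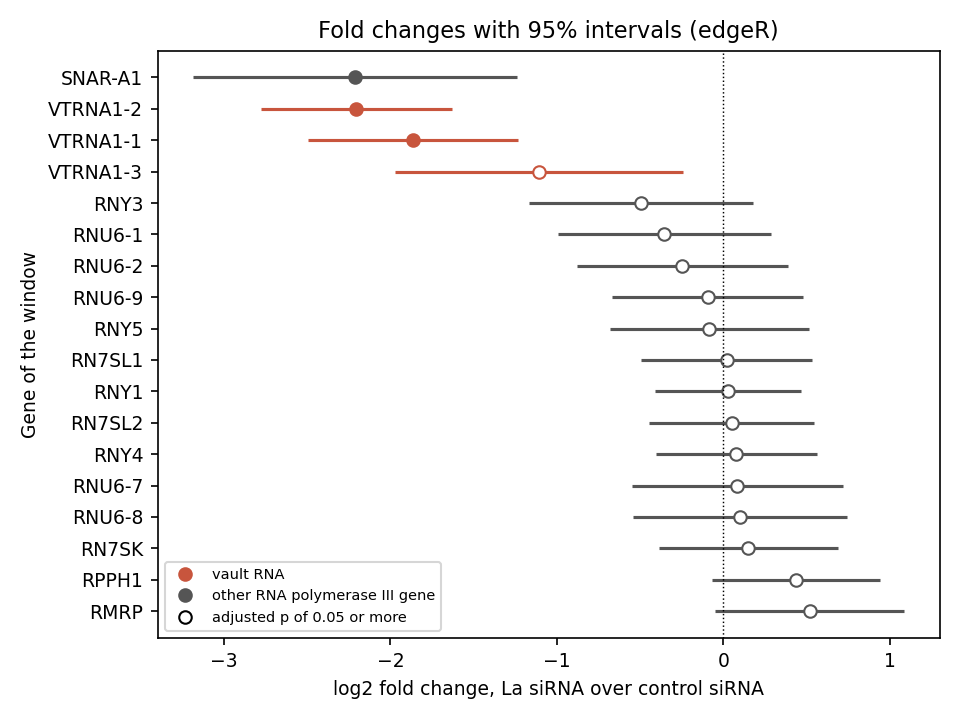
Log2 fold changes of La siRNA over control siRNA (x axis) with 95% intervals for the 3 tested vault RNA windows (red) and one window for each of 15 other RNA polymerase III genes (grey), filled where the edgeR adjusted p is under 0.05. VTRNA1-2, VTRNA1-1 and SNAR-A1 are filled and lie at or below -1.86, and the uncalled grey genes lie between -0.49 and 0.52. tRNA genes and other snAR copies, which made up most of the windows called lower, are not shown.

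Across the 6 libraries the VTRNA1 windows moved together, with Pearson r on log2 CPM of 0.992 for VTRNA1-1 and VTRNA1-2, 0.922 for VTRNA1-1 and VTRNA1-3 and 0.886 for VTRNA1-2 and VTRNA1-3. Much of such an r is the difference between the arms, and the windows share libraries and, in part, sequence. Among 897 other windows with a mean of at least 20 counts, the 5 most like VTRNA1-2 by this measure were tRNA gene windows, TRK-TTT9-1 (r = 0.985), TRT-AGT1-3 (0.980), TRC-GCA2-3 (0.978), TRI-AAT6-1 (0.975) and TRT-TGT5-1 (0.971). Likeness in pattern was not likeness in size. TRK-TTT9-1 on chromosome 6 went from 312 ± 31.4 to 87.5 ± 23.5 CPM (SD, n = 3 each), which is -1.83 on the log2 scale (adjusted p = 0.0103 with edgeR). TRT-TGT5-1 on chromosome 14 had -1.69 (edgeR adjusted p = 0.0148). The other three had -0.87, -0.68 and -0.96 and were not called (edgeR adjusted p = 0.103, 0.157 and 0.0666). tRNA genes have near-identical copies that may share reads, which limits each of these values.

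The promoters of the proteins around these RNAs were hardly read. A list of 11 genes had 21 windows, of which 0 had enough reads for the edgeR test. It held MVP, PARP4 and TEP1 of the vault particle, and RO60, whose product binds Y RNAs. The others were SSB, NSUN2, SRSF2, DUSP11, SQSTM1, EIF2AK2 and DICER1, whose products bind, modify or process vault RNAs or nc886. The highest count was 14, at SRSF2 in siLa replicate 1. MVP had 2 counts in siControl and 1 in siLa over both its windows and all libraries, PARP4 likewise 2 and 1, and TEP1 had none. Without the filter 17 of the 21 windows could be fitted, and 0 were called by edgeR adjusted p. An unadjusted p under 0.05 was reached by 1 of them, SSB window PCG_40419 (log2 fold change -2.92, SE 1.40, unadjusted p = 0.0368, edgeR adjusted p = 0.581).

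The surroundings of the members were nearly silent in these libraries. No other window overlapped a member. Within 50000 bp of a member there were 8 windows, among them those of TGFBI near nc886 and of WDR55, HARS, HARS2 and ZMAT2 near VTRNA1-1. The highest count in any of them was 4, in siLa replicate 3 at HARS and HARS2, which had no read in siControl, and 3 of the 8 had no read at all. None was tested.

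**Figure D5:**
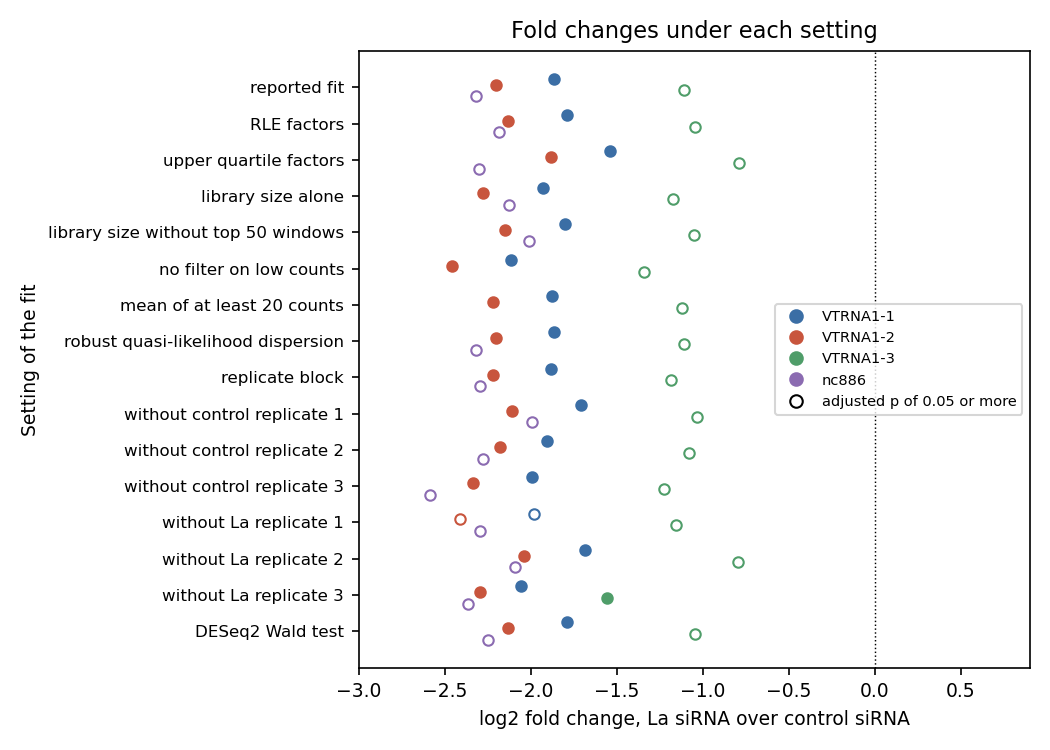
Log2 fold change of La siRNA over control siRNA (x axis) of the 4 windows under each setting of the fit (y axis), filled where the adjusted p is under 0.05. The nc886 values come from fits without a filter on low counts, and a window has no point where a setting gave none. Every point lies below 0. VTRNA1-2 and VTRNA1-1 are open only without La replicate 1, and VTRNA1-3 is filled only without La replicate 3.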

How the data were processed

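The deposited table of raw counts per window was used as the authors made it. The submitters' processing notes name Trim Galore, Bowtie2, bedtools, edgeR and the build GRCh38 (hg38), without roles. Strand and multiply placed reads are not described in the sources used here. The authors' own comparison gives, per the file headers, the log2 fold change and mean log2 CPM of a window with its F statistic (a score), p-value and adjusted p-value.

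Counts were fitted with edgeR 4.0.16 in R 4.3.3 (filterByExpr, TMM, quasi-likelihood test, arm as the single term, Benjamini-Hochberg over all windows tested, threshold 0.05), after a test on simulated data. Replicates differed by more than sampling noise (chi-square per degree of freedom at least 62.1). Within-library ratios added 0.5 to each count and were tested with scipy 1.17.1. RNA sequences came from GENCODE release 29, and names of small RNA genes came from RefSeq. Sequences were aligned with Biopython 1.88 and figures drawn with matplotlib 3.10.9. Window starts were shifted by 1 to browser coordinates.

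All 4 members were always named, with SSB, called windows of the RNA polymerase III list and the 5 windows most like VTRNA1-2. The RNA polymerase III list held 17 symbols, of which a window had to hold the gene whole. The members and lists were chosen with earlier results of these data known. Alternatives were 4 other scalings, DESeq2 1.42.0, other filters, robust dispersion, a replicate block and leaving out each library.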

Additional observations from a re-analysis of the deposited data

How the results depend on the processing

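Of 58 alternative fits of the 4 members, 0 changed sign, 2 lost a call, 1 gained one and the other 55 changed neither sign nor call. Lost were VTRNA1-2 (-2.41) and VTRNA1-1 (-1.98) without siLa replicate 1, and gained was VTRNA1-3 (-1.56) without siLa replicate 3. When 1 library at a time was left out, the log2 fold change ranged from -2.41 to -2.04 for VTRNA1-2, from -2.06 to -1.68 for VTRNA1-1, from -1.56 to -0.79 for VTRNA1-3 and from -2.59 to -1.99 for nc886. The count of lower windows on the RNA polymerase III list then ranged from 0, without siLa replicate 1, to 1. Each such fit has fewer libraries, and beyond that the cause was not tested. With upper quartile factors the median over all windows shifted by 0.32, and the values of VTRNA1-2, VTRNA1-1 and VTRNA1-3 became -1.88, -1.54 and -0.79. The nc886 alternatives were all fitted without a filter, and a mean of at least 20 counts gave it no value. Over the ratios between members, leaving out a library gave 0.25 to 0.41 for VTRNA1-1 to VTRNA1-2, 0.72 to 1.23 for VTRNA1-3 to VTRNA1-2 and -0.86 to -0.47 for VTRNA1-1 to VTRNA1-3.

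With a replicate block the log2 fold changes were -2.22 for VTRNA1-2, -1.88 for VTRNA1-1, -1.19 for VTRNA1-3 and -2.30 for nc886, and no call of a member changed, while over all windows 88 were lower and 20 higher. The numbers were not taken to pair libraries, since the deviations of same-numbered libraries from their arm means correlated at 0.14, 0.23 and -0.46, and siControl replicate 1 correlated best with siLa replicate 3 (0.50). Depth limits nc886 most, at 2 counts per siLa library.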
